A study of Arabidopsis thaliana with 4 samples.

Results

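Among the transcripts of the Arabidopsis thaliana shoot apex, 80 probe sets were bright in short days and at least 4-fold lower after a move to long days. They were chosen by their values. A member had an intensity of 200 or more on both short day arrays, and its higher value after the shift was at most 25 percent of its lower short day value. The rule was applied to 22746 probe sets, of which 11354 reached 200 on both short day arrays. It found 85, and 5 of these were left out by name (BCAT4, AT2G25450, PYK10, COR15A and scpl31). Of the 80 members, 27 are paired with 1 gene by the annotation, 3 with several genes, and 50 are unnamed here.

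Total RNA of dissected shoot apices of the Col-0 accession, wild type throughout, was hybridised to 1 array per sample. In the group SD30_LD7, plants had 30 short days followed by 7 long days, and in the group SD30, 30 short days only. Each group had 2 samples. The labels do not say whether these came from separate plantings, nor how many apices were pooled. The spread between samples, on which errors rest in part, may therefore be technical. Age and day length cannot be told apart, because the shifted plants were also 7 days older.

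The apex of a rosette plant holds the meristem, its youngest leaf primordia and the short stem below them. Under long days the leaves send a flowering signal to it, and the meristem turns from making leaves to making flowers. Lipid-transfer proteins are small secreted proteins that bind lipids and are abundant in the epidermis and its cuticle. Class III peroxidases act on cell wall polymers, and transporters of the NRT1/PTR family (NPF) carry nitrate, peptides, hormones and other small molecules.

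The arrays were alike in scale, with median intensities of 207 and 211 for SD30_LD7 and of 214 and 220.5 for SD30. RNA integrity was read from the 3' over 5' ratio of control probe sets. For actin it was 8.27 and 4.64 in SD30_LD7 and 6.51 and 5.72 in SD30. For GAPDH it was 2.65 and 1.57 against 1.78 and 2.04, and for ubiquitin 3.27 and 2.36 against 3.14 and 3.44. The groups overlapped for each control, but SD30_LD7 replicate 1 had the highest actin and GAPDH ratios. The RNA was taken from whole apices, and fewer cells of a type and less RNA per cell cannot be told apart. Of the genes listed for the shoot meristem, the annotation names 2 of 14. CLV3, which encodes the signal peptide of the central zone, had 72.6 and 87.9 in SD30_LD7 apices, against 72.9 and 104 in SD30 apices. ULT1, a regulator of meristem size, had 1056 and 1163 in SD30_LD7 apices, against 1019.7 and 986 in SD30 apices. Both were measured in both groups, and neither passed the test.

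The differences were fitted for all probe sets together with limma, on log2 intensities. Its standard errors (± SE) mix a probe set's own replicate spread with a spread shared by probe sets of like intensity. The shared part weighs more, with 9.9 prior against 2 residual degrees of freedom, so an SE is not the spread of that gene alone. Of 15922 probe sets bright enough to test, limma called 1305 lower in SD30_LD7 (adjusted p under 0.05), which is 8.2 percent, and 1083 higher. With arrays centred on their medians these counts were 1049 and 1302. All 80 members passed the filter on dim values and all 80 were called lower, but the rule used the same contrast, so this count follows from the choice of members. The 85 probe sets found before the exclusions were 0.749 percent of those of 200 or more on both SD30 arrays. The same rule turned round, with 200 or more on both SD30_LD7 arrays and SD30 values at least 4-fold lower, found 37 of 11280.

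**Figure D1:**
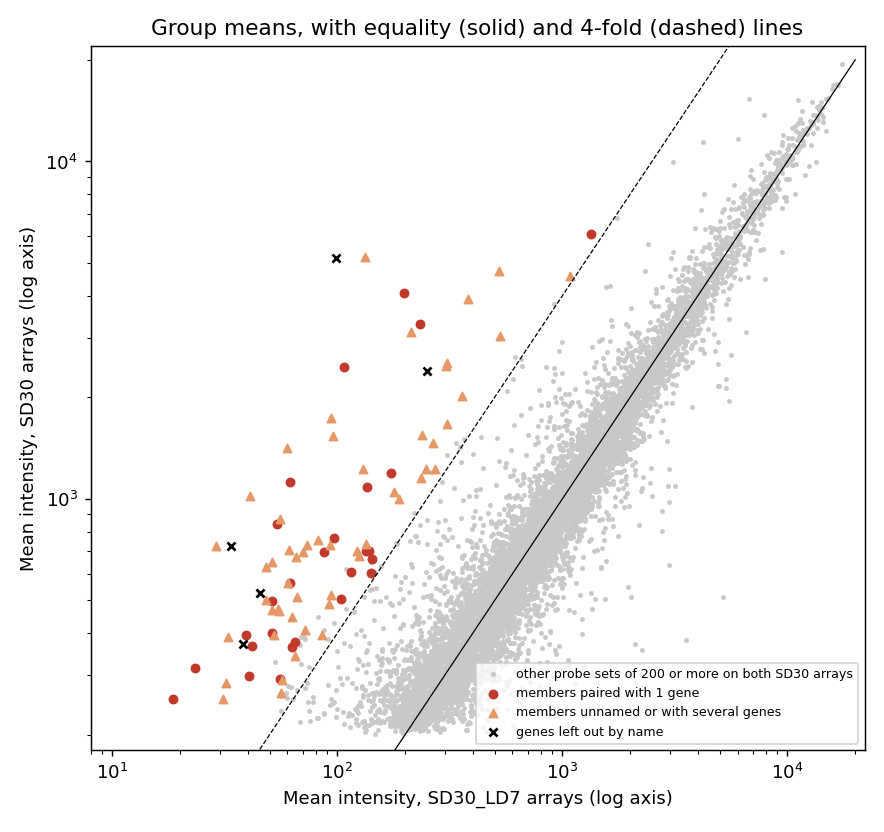
Mean intensity on the 2 SD30 arrays (vertical, log axis) against that on the 2 SD30_LD7 arrays (horizontal, log axis) for the 11354 probe sets of 200 or more on both SD30 arrays. The 80 members (circles and triangles) lie left of the dashed 4-fold line, with short day means from 254.5 to 6102, and the 5 crosses are the genes left out by name.

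Each member was compared with itself between groups, since levels of different probe sets are not comparable. The members kept 2.54 to 23.7 percent of their short day level, with a median of 12.5 percent. Their median log2 difference was -3.03, beside -0.0021 over all probe sets tested and 0.015 over those of 200 or more on both SD30 arrays. The rule sets this gap, since it admits only probe sets at least 4-fold lower. Of the 80, 9 were at least 16-fold lower by group means, 31 between 8- and 16-fold, 30 between 5- and 8-fold and 10 less than 5-fold. On the shifted arrays 45 members lay under 100 on both, while 14 still had 200 or more on both. The 27 named members had a median fold of 7.94 and the 50 unnamed ones of 8.36.

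The rule admits no overlap between groups. Of all probe sets tested, 26.9 percent had both SD30_LD7 values below both SD30 values. The spread between replicates of the members was as follows. The higher of 2 replicate values exceeded the lower by a median factor of 1.18 on the SD30_LD7 arrays and of 1.14 on the SD30 arrays. That factor was above 1.5 for 16 members on the SD30_LD7 arrays and for 5 on the SD30 arrays. Neither replicate was consistently the higher one, as replicate 1 was above replicate 2 in 33 members after the shift and in 36 in short days. Over the 4 possible pairs of arrays, the smallest fold of a member had a median of 6.69 and the largest of 9.89.

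**Figure D2:**
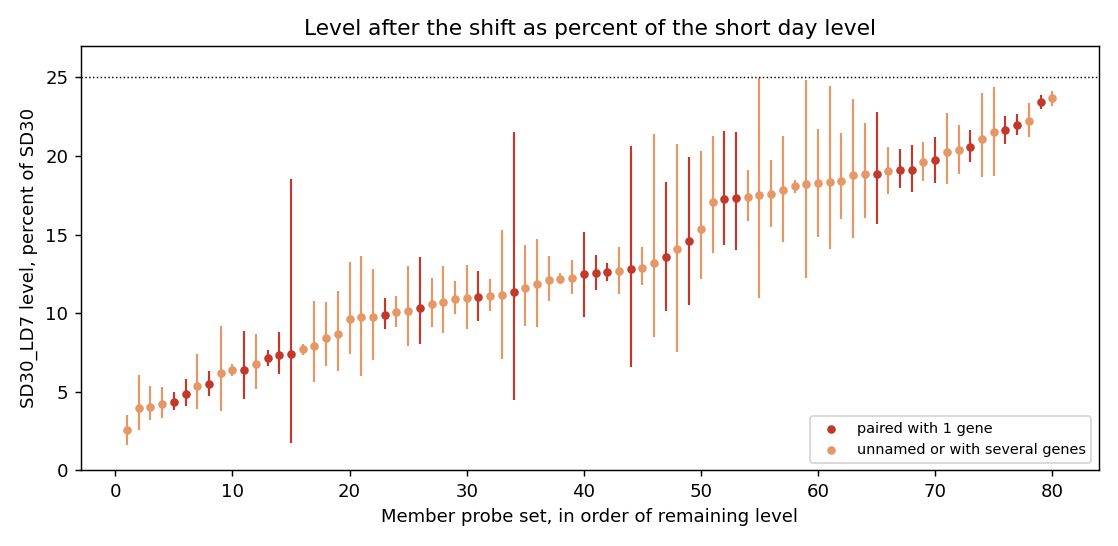
Mean SD30_LD7 intensity as percent of the mean SD30 intensity (vertical) for each of the 80 members, in order of that percentage (horizontal). Points are ratios of group means and bars span the 4 pairs of arrays. The remaining level runs from 2.54 to 23.7 percent, and the dotted line marks the limit of 25 percent.

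The lipid-transfer protein family supplied 3 named members. Where the annotation gives no description, as for AT5G59330, the family or role of a member is background knowledge about the gene. A pattern on symbols and synonyms matched 0 lipid-transfer protein genes, so no share over all probe sets can be set beside the 3. AT5G59330 had an intensity of 216 and 179.5 in SD30_LD7 apices, against 3715 and 4423 in SD30 apices, and 4.86 percent of its short day level remained. AT3G53980 had 19.6 and 63.5 in SD30_LD7 apices, against 437 and 295 in SD30 apices. AT5G05960 had 46.4 and 34.9 in SD30_LD7 apices, against 345 and 253 in SD30 apices. The gap between groups in these genes is set by the rule. The shifted arrays differed more than 3-fold for AT3G53980, where the lower one was under the floor of 23.5 set on low intensities. Their log2 differences were -4.36 ± 0.13, -3.22 ± 0.39 and -2.88 ± 0.26 (limma, ± SE).

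Among genes of the cell wall and of secreted proteins, AT5G61660, which encodes a glycine-rich protein, had 67.8 and 55.6 in SD30_LD7 apices, against 1079 and 1169 in SD30 apices. With 5.49 percent of the short day level left, it was the lowest of the 8 genes in this group, which ranged up to 23.4 percent. AT5G64110, a class III peroxidase gene, had 241 and 227 in SD30_LD7 apices, against 3146 and 3431 in SD30 apices, and both replicates of each group lay close together. AT5G62150, which encodes a protein with a LysM domain, a fold that binds sugar polymers with N-acetylglucosamine, had 98.7 and 93.7 in SD30_LD7 apices, against 779.5 and 748 in SD30 apices.

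The pollen Ole e 1 allergen and extensin family, named for a secreted pollen protein, supplied 2 named members. AT2G34700 had 73.2 and 29.2 in SD30_LD7 apices, against 354 and 444 in SD30 apices, with shifted replicates 2.51-fold apart. AT3G26960 had 58.7 and 71.2 in SD30_LD7 apices, against 331 and 419.8 in SD30 apices, with shifted replicates 1.21-fold apart. The defensin-like gene AT3G05730, of a family of small cysteine-rich secreted peptides, had 206 and 142 in SD30_LD7 apices, against 1346 and 1034 in SD30 apices. The higher of its shifted values was above 200 and the lower was not.

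Closer to the 4-fold limit were a pair of genes for secreted or vacuolar hydrolases. AT1G62290, an aspartic protease gene, had 141 and 145 in SD30_LD7 apices, against 643 and 680.3 in SD30 apices, and the GDSL lipase gene AT1G29660 had 143 and 139 in SD30_LD7 apices, against 600.2 and 602 in SD30 apices. Replicates of these genes were nearly equal, so the 4 pairs of arrays gave almost the same fold. The log2 differences were -2.21 ± 0.15 and -2.09 ± 0.15, with errors set mostly by the shared spread of the fit.

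The largest fall among the named members was that of AT3G45160, which encodes a small predicted membrane protein, with 107 and 108 in SD30_LD7 apices, against 2764 and 2164 in SD30 apices. Of its short day level 4.36 percent was left, and the shifted replicates differed by 1.02-fold. AT5G43180 and AT1G49470, which encode predicted membrane proteins without an assigned function, had 37.8 and 40.4 against 421 and 368 and 55.8 and 47.0 against 583 and 410.5 (SD30_LD7 against SD30). The highest shifted value of these 3 genes was 108.

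Transporter genes made up 2 of the named members. AT1G59740, also named NPF4.3, had 56.7 and 67.0 in SD30_LD7 apices, against 528 and 596 in SD30 apices. AT4G34950, of the major facilitator superfamily of membrane carriers, had 82.9 and 91.9 in SD30_LD7 apices, against 671 and 722 in SD30 apices. These are 11.0 percent and 12.5 percent of the short day level. AT3G22240, which encodes a small protein with a cysteine-rich membrane segment, had 106 and 163 in SD30_LD7 apices, against 1088 and 1076 in SD30 apices, and its short day replicates were nearly equal while the shifted ones were 1.54-fold apart.

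Genes of signalling, redox control and protein folding made up 5 of the named members. AT1G56300, which encodes a protein with the DnaJ domain of co-chaperones, had 65.0 and 42.8 in SD30_LD7 apices, against 736 and 949.7 in SD30 apices. AT1G06830, a gene of the CC-type glutaredoxins, small redox proteins that bind TGA transcription factors, had 7.3 and 39.3 in SD30_LD7 apices, against 212 and 416 in SD30 apices. The replicates of AT1G06830 were the farthest apart of all members in both groups. They differed 5.38-fold on the shifted arrays and 1.96-fold on the short day arrays. That the groups of AT1G06830 do not overlap follows from the rule. Under a floor at the 40th percentile its log2 difference moved to -1.55, against -3.29 ± 0.35 with the floor used here.

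AT3G05640, a type 2C protein phosphatase gene, had 131 and 137 in SD30_LD7 apices, against 663 and 739 in SD30 apices. AT5G05790, which encodes a MYB-related DNA-binding protein, had 62.5 and 63.3 in SD30_LD7 apices, against 435 and 293 in SD30 apices. AT5G50120, which encodes a WD40 repeat protein, had 55.7 and 55.6 in SD30_LD7 apices, against 273 and 310.1 in SD30 apices. These 3 genes kept 19.1 percent, 17.3 percent and 19.1 percent of their short day level, and their shifted replicates differed by at most 1.05-fold.

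The other 5 named genes have no shared role. AT1G13930, which has been linked to salt tolerance, had 1356 and 1328 in SD30_LD7 apices, against 5978 and 6226 in SD30 apices. It was 4.55-fold lower and still had 1328 or more on both shifted arrays. AT2G28780 had 17.1 and 20.1 in SD30_LD7 apices, against 281 and 228 in SD30 apices. Both of its shifted values lay under the floor, so its fitted log2 difference depends on that floor, with -3.43 under the floor used here and -1.31 under one at the 40th percentile. AT1G20070, AT5G38320 and AT5G05250 were 4.86- to 5.30-fold lower, and the highest shifted value among them was 147, against a lowest short day value of 481.

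**Figure D3:**
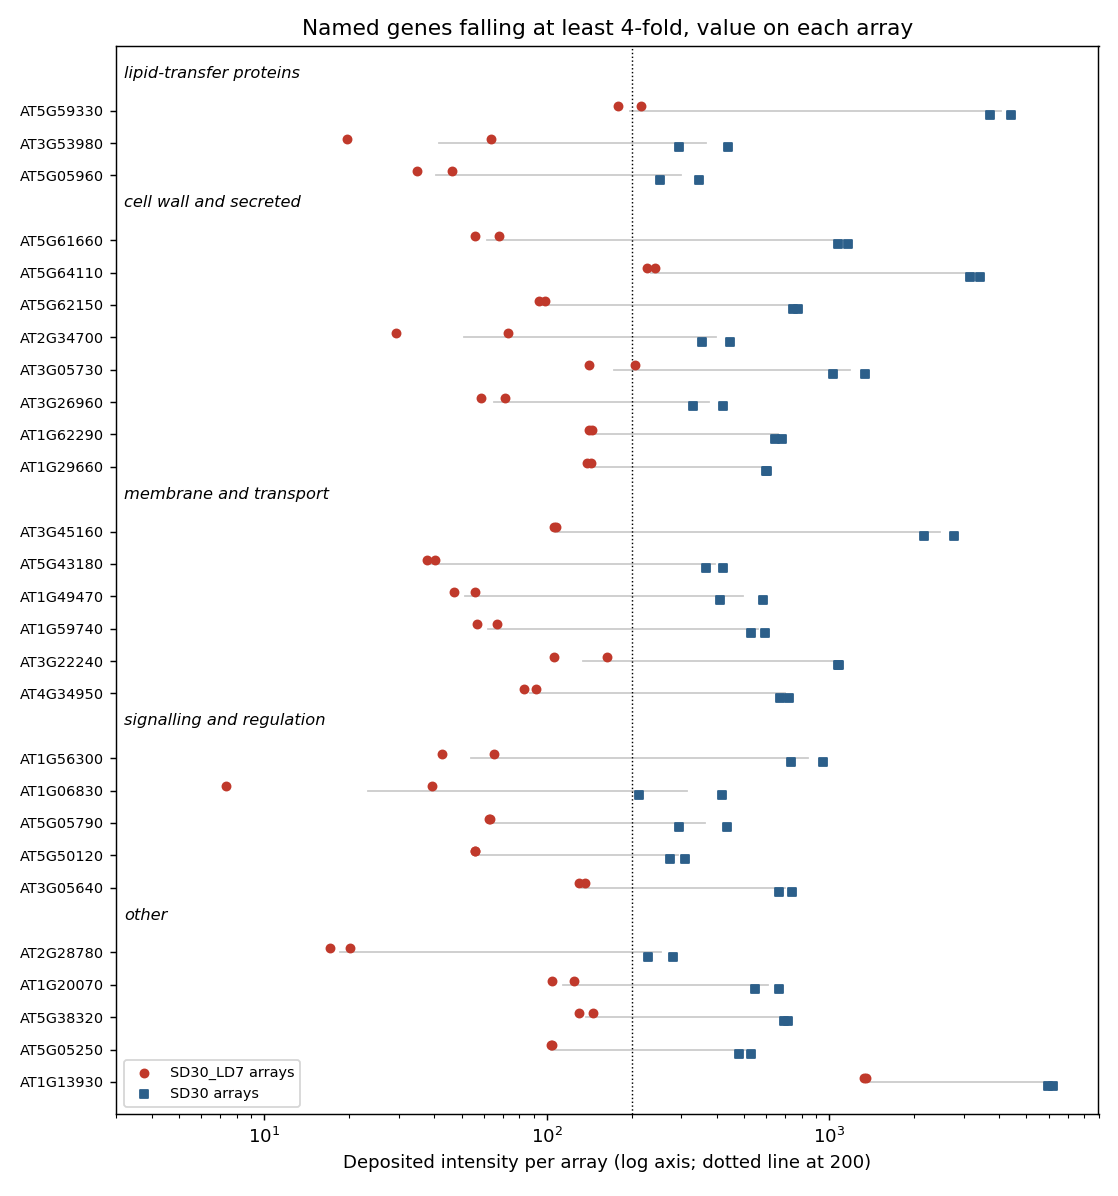
Deposited intensity on each array (horizontal, log axis) for the 27 members paired with 1 gene, grouped by role, with SD30_LD7 arrays as circles above the SD30 arrays as squares and a grey line between group means. In every gene both circles lie left of both squares, as the rule requires. AT1G06830 has the widest spread between shifted arrays, 7.30 and 39.3.

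Unnamed probe sets held the largest falls of the set. Probe set 249866_at had 85.6 and 178 in SD30_LD7 apices, against 5096 and 5303 in SD30 apices, and 2.54 percent of its level remained. Probe set 258322_at had 22.1 and 35.4 in SD30_LD7 apices, against 583 and 863 in SD30 apices, 262388_at had 43.0 and 39.2 in SD30_LD7 apices, against 1235 and 799 in SD30 apices, and 251524_at had 51.2 and 67.8 in SD30_LD7 apices, against 1286 and 1535 in SD30 apices. These 4 kept less of their level than any named member, at most 4.22 percent.

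Of the other unnamed members among the 12 largest falls, 257823_at had 77.3 and 109.5 in SD30_LD7 apices, against 1998 and 1475 in SD30 apices. Probe set 254862_at had 63.9 and 127 in SD30_LD7 apices, against 1381 and 1691 in SD30 apices. Probe sets 250598_at and 254687_at had 56.3 and 54.7 against 834 and 910.3 and 175 and 248 against 3387 and 2862 (SD30_LD7 against SD30). The shifted replicates of 254862_at and of 249866_at were 1.98- and 2.09-fold apart, and those of 250598_at 1.03-fold.

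Several members named for their bright short day signal still had a clear signal after the shift. Probe set 245891_at had 500.2 and 548 in SD30_LD7 apices, against 4508 and 4942 in SD30 apices. Probe set 249477_s_at, which the annotation pairs with several genes, had 1060.4 and 1101 in SD30_LD7 apices, against 4562 and 4570.2 in SD30 apices, the highest remaining share of all members at 23.7 percent. Probe set 261335_at had 237 and 527 in SD30_LD7 apices, against 3966 and 3868 in SD30 apices, with shifted replicates 2.23-fold apart. Probe sets 261895_at, 260385_at and 266383_at kept 17.4, 12.1 and 12.3 percent. The probe sets 265929_s_at and 260950_s_at, also paired with several genes, kept 14.1 percent and 20.3 percent, and which of their genes gave the signal was not tested. Unnamed probe sets made up 62.5 percent of the members, beside 44.6 percent of the 11354 probe sets of 200 or more on both SD30 arrays.

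Values around both limits show how the rule cuts the data. Just inside the fold limit lay the unnamed probe sets 245090_at, 261576_at and 247549_at, whose lowest short day value was 4.01, 4.02 and 4.09 times the highest shifted value. Just outside lay WRKY47, a WRKY transcription factor gene, at 3.98, AT1G23040 at 3.94 and AT5G10580 at 3.94. At the limit of 200, the members AT1G06830, AT2G28780 and 250463_at had lowest short day values of 212, 228.5 and 243. AT2G30540, a CC-type glutaredoxin gene like AT1G06830, missed it with 199 on 1 array, and had 37.4 and 44.9 in SD30_LD7 apices, against 199 and 245 in SD30 apices. AT1G47400, which encodes a peptide of the iron deficiency response, had 38.7 and 12.5 in SD30_LD7 apices, against 287 and 198 in SD30 apices, and 262717_s_at missed it with 197.

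Further genes of 3 families were looked up because a member belongs to them, with lists written after the values had been seen. Of the 21 CC-type glutaredoxin genes the annotation names 17, and 6 were bright enough to test. Apart from the member AT1G06830, 3 of the other 5 were called lower, beside 8.2 percent of all probe sets, which shows nothing about the family, since the list was written because of the member. AT2G30540 had a log2 difference of -2.43 ± 0.26 (limma adjusted p = 4e-05). AT5G18600 had 106 and 97.0 in SD30_LD7 apices, against 241 and 173 in SD30 apices, a log2 difference of -1.01 ± 0.23, and its call was lost without SD30 replicate 1 (limma adjusted p = 0.13) or SD30_LD7 replicate 2 (0.073). AT5G11930 had -0.42 ± 0.12, and its call was lost without any 1 array (limma adjusted p = 0.063 to 0.21). ROXY1, a glutaredoxin gene of petal and anther development, had 0.11 ± 0.14 and AT4G33040 had 0.52 ± 0.27, and neither passed the test. The median of the 5 was -0.42.

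In the NRT1/PTR family the annotation names 11 genes through its synonyms, 9 of them bright enough to test. Apart from the member AT1G59740, 3 of the other 8 were called lower and 1 higher, beside 8.2 and 6.8 percent of all probe sets, with a median of -0.54, and nothing is read from this list either. AT1G33440, also named NPF4.4, had 46.7 and 31.7 in SD30_LD7 apices, against 182 and 259 in SD30 apices. Its log2 difference was -2.49 ± 0.29 (limma adjusted p = 9.4e-05), and it met neither limit of the rule, with 1 short day value under 200 and a lowest short day value less than 4 times the highest shifted one. GTR2, a glucosinolate transporter gene, had -0.78 ± 0.13, while the related GTR1 had 0.07 ± 0.13 and did not pass. AT2G26690 had -0.70 ± 0.12, and AT1G68570 was higher, with 611 and 690.1 in SD30_LD7 apices, against 346 and 351 in SD30 apices.

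AT5G27930, a type 2C phosphatase gene of the same clade as the member AT3G05640, had 595 and 672 in SD30_LD7 apices, against 991 and 1047 in SD30 apices, a log2 difference of -0.69 ± 0.11 (limma adjusted p = 0.0014). The last gene of these 3, AT3G16800, had 29.0 and 12.4 in SD30_LD7 apices, against 8.1 and 32.1 in SD30 apices and was too dim to test. Every call of a gene of these 3 families that was not a member was lost under a floor at the 40th percentile, and also when no dim probe set was dropped (limma adjusted p = 0.061 to 0.22). Under these settings 60 and 27 of the 80 members were called, but the rule chose them by the same contrast. Nothing is read from these counts, and those over all probe sets are given with the settings below.

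**Figure D4:**
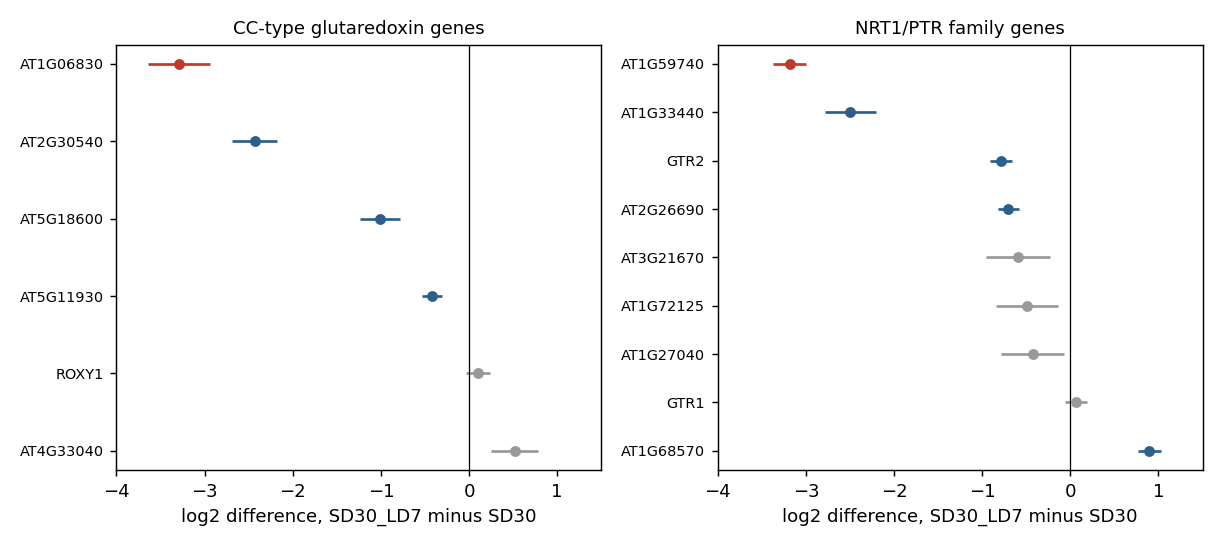
Log2 difference, SD30_LD7 minus SD30, with its standard error from limma (bars), for the 6 CC-type glutaredoxin genes and the 9 NRT1/PTR family genes bright enough to test. Red points are the members AT1G06830 and AT1G59740, blue points are other genes that passed the test and grey points are genes that did not.

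Position in the genome was not used by the rule. In the gene order of the TAIR10.1 gene table, no 2 of the 27 named members were next to each other, and 2 pairs lay within 30 genes, AT5G05790 with AT5G05960 at 17 genes and AT3G05640 with AT3G05730 at 13. Of the genes directly beside a named member, the annotation pairs 23 with a probe set of their own, and 17 were bright enough to test. Others may be measured by probe sets that are unnamed here. Of these 17, 4 were called lower, beside 8.2 percent of all probe sets, with a median log2 difference of -0.10. AT5G50130, beside the WD40 gene AT5G50120, had 160.2 and 181 in SD30_LD7 apices, against 425 and 559 in SD30 apices, a log2 difference of -1.52 ± 0.17 (limma adjusted p = 7.5e-05). AT1G29670, a GDSL lipase gene beside AT1G29660, had 817 and 970.2 in SD30_LD7 apices, against 1523 and 1336 in SD30 apices, a log2 difference of -0.68 ± 0.12, and its call was lost without SD30 replicate 1 (limma adjusted p = 0.069). The calls of AT3G53990, beside AT3G53980, and of WRKY6, beside AT1G62290, were lost without any 1 array (limma adjusted p = 0.11 to 0.20 and 0.065 to 0.23).

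The member AT5G64110 lies between 2 other peroxidase genes. AT5G64100 had 18.5 and 2.7 in SD30_LD7 apices, against 7.3 and 11.3 in SD30 apices, and AT5G64120 had 4.3 and 2.7 in SD30_LD7 apices, against 27.9 and 28.0 in SD30 apices. Neither exceeded 28.0 on any array, and both were too dim to test with the filter used here. When no dim probe set was dropped, AT5G64120 was called lower, with a log2 difference of -0.25 once low values were set to the floor (limma adjusted p = 0.032). Both of its shifted values then equal the floor of 23.5, so they have no spread and the call depends on that floor. Nothing is read from it. A pattern on symbols and synonyms, used here to list peroxidases, matched 7 genes, of which 2 were bright enough to test. Both are chloroplast ascorbate peroxidase genes. They had log2 differences of 0.07 ± 0.11 (SAPX) and -0.23 ± 0.12 (TAPX) and did not pass.

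Markers of other tissues were set beside the members, from lists that the annotation covers in small part. It names 0 of 14 vascular genes and 0 of 8 epidermis genes, so those lists gave no values. Of 25 root genes it names 5. Their summed intensity was 255 to 307 in SD30_LD7 and 2448 to 2465 in SD30. Nearly all of it came from PYK10, which met the limits of the rule and was left out by name. A sum follows its brightest probe sets, whose levels are not comparable, so none of the sums given here measures the amount of a tissue. The root peroxidase genes AT5G17820 and AT4G30170 were near 0 in both groups, with at most 12.8, and AT3G01190 and EXPA7, a root hair expansin gene, had at most 44.6. Of 17 green leaf genes it names 3, with sums of 11202 to 12111 in SD30_LD7 and of 12407 to 15637 in SD30. Most of that sum came from LHCB4.1, a light-harvesting antenna gene, and RCA, the gene of Rubisco activase, and neither passed the test. With replicate number as a block RCA was called lower (limma adjusted p = 0.024). Its log2 difference was -0.42, and it was -0.16 without SD30 replicate 1 and -0.68 without SD30 replicate 2. LHCB4.3, another antenna gene, was higher, with 435 and 413 in SD30_LD7 apices, against 127 and 132 in SD30 apices, a log2 difference of 1.72 ± 0.16 (limma adjusted p = 1.7e-05). Of 10 trichome and guard cell genes it names 4, with sums of 501 to 524 in SD30_LD7 and of 576 to 658 in SD30, MUTE being under the floor on all 4 arrays. The 3 tested genes differed in sign. SPCH, which starts the stomatal lineage, was called lower, with a log2 difference of -0.57 ± 0.15 (limma adjusted p = 0.026), and its call was lost without any 1 array (limma adjusted p = 0.078 to 0.20). TRY and FMA had 0.27 ± 0.20 and 0.14 ± 0.29 and did not pass. Whether a change in tissue makeup has a part in the members' falls was not tested.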

How the data were processed

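The values deposited by the authors are linear intensities, 1 for each of 22746 probe sets and 64 controls on every array. They arrived scaled, since each array averaged 500.033 to 500.036 once the lowest and highest 2 percent were set aside. Which software made them is not given in the sources. Precision is limited by the number of arrays. Probe sets were named through a table of probe sets and genes and the TAIR10.1 gene table. It pairs 13513 with 1 gene, 503 with several, and 8730 are unnamed here.

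For the fit, intensities under 23.5, the 20th percentile, were set to that floor, log2 was taken, and the dimmest 30 percent (6824 probe sets) were left out. The comparison used limma 3.58.1 (R 4.3.3) with lmFit and a two-sided eBayes test with an intensity trend, and Benjamini-Hochberg adjustment over 15922 probe sets and a threshold of 0.05. The procedure was tested on simulated data whose spread followed limma's own model. A first simulation, with the observed spreads shuffled among probe sets, missed its target for recovering 4-fold changes and was replaced, so the test used is the easier one. The member rule was applied to the intensities as deposited. Figures were drawn with matplotlib 3.10.9.

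The members and lists were chosen with earlier results of these data known. Any member paired with 1 gene could be named. Values on every array were planned for the 12 largest falls, the 12 members brightest in short days and up to 3 of each role group, and were given for further named members as well. Other genes were named from lists, as gene-order neighbours or at the limits of the rule. The lists of glutaredoxins, NRT1/PTR family and phosphatases were added after values were seen. Settings varied were the scaling, the floor, the filter, a replicate block, the arrays kept and the limits of the rule. Promoter and protein sequences were not analysed here.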

Additional observations from a re-analysis of the deposited data

Results flagged for a closer look

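Outside the comparison, the control AFFX-r2-At-U12639_at had 230.4 and 307 on the SD30_LD7 arrays against 25.2 and 10.7 on the SD30 arrays. Its mean was 269 after the shift against 17.9 in short days. Control probe sets were used in no comparison, and this one was picked out by the member rule turned round. Of the 64 control probe sets, 0 met the rule for the members.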

How the results depend on the processing

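The rule found 80 members with its set limits, 128 with a 3-fold limit and 48 with a 5-fold limit. Leaving out 1 array gave 92 to 108 members, and 100 or 400 in place of 200 gave 105 and 61. Quantile normalization gave 75, median centring 73 and the ratio of group means 116. Leaving out an array can only loosen the rule, so it cannot lose a member. Quantile normalization and median centring found 75 and 73 of the 80.

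Over all probe sets limma made 2388 calls (1305 lower), and 1058 to 1494 (583 to 879 lower) without 1 array, where a group's remaining array was taken to vary as much as the other group. It made 443 of 15922 under a floor at the 40th percentile and 152 of 22746 with no filter on dim probe sets. Without an intensity trend it made 1532. Of the 80 members, 60 were called with that higher floor and 27 with no filter, and 80 of 80 without any 1 array. With the dimmest 50 percent dropped, 45 members were bright enough to test. The rule chose members by the same contrast, so nothing is read from the counts of members called. The samples share only a replicate number, and deviations of same-numbered samples correlated at 0.046 over the probe sets tested. The replicate block gave 2741 calls. Under the 40th percentile floor the log2 differences of the 27 members paired with 1 gene ranged from -4.51 to -1.31, and 15 of them moved by more than the spread between replicates, as did 18 with a pseudocount of 16 in place of the floor. The calls of AT5G50130, AT1G29670, AT3G53990 and WRKY6 were lost under that floor and with no filter, as was that of LHCB4.3 with no filter (limma adjusted p = 0.051), and that of AT5G64120 was gained with no filter. Promoter motif shares were not run, since no promoter sequences were at hand.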
